A study of Apis mellifera with 138 samples.

Results

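Dual oxidase and the gene beside it were followed through single honey bees (Apis mellifera) fed an antagomir, a synthetic RNA that binds a microRNA. The 2 genes are LOC551970 (gene2724), described as dual oxidase in the study's gene annotation, and LOC413858 (gene2726), which lies next to it on the same strand and has no description in the sources used here, so it is called by its identifier. They are 2 of the 12332 bee genes counted, and they were picked because both were higher in brains of bees fed antag-305. Their values in the brain treatment comparison are therefore a description, given without a test. Workers were fed 1000 pmol of antag-305, directed against ame-miR-305-5p, or of antag-missense, the control antagomir with a sequence that does not match it, in sucrose at 3 days of age, and brain and abdominal fat body were taken from each bee 48 h later, at 5 days of age. The bees came from colonies R2, R3 and R42, each the offspring of a queen inseminated by a single drone and each used in its own trial, which leaves colony confounded with trial. The treatments were given by mouth to whole bees, and miR-305 itself was not measured in these libraries. The paper assayed it separately by RT-qPCR, and states that the sequenced RNA came from that assay's samples. Its fat body level was significantly lower after antag-305 than after antag-missense in most of the paper's colony trials. Brains were assayed only from trials with such a drop, and there the paper found no significant change.

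Dual oxidases are membrane enzymes that pass electrons from NADPH to oxygen and release hydrogen peroxide outside the cell. In Drosophila, Duox is best known from the gut, where its products act against microbes, and from the cuticle, where they serve protein crosslinking. Catalase, superoxide dismutases and thioredoxin- or glutathione-type peroxidases remove the superoxide and hydrogen peroxide that such enzymes and mitochondria make.

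Of 138 libraries, 132 had a viral share of at most 0.5% of their counts and were used, 67 from the brain and 65 from the fat body. The brain libraries came from 12, 12 and 11 bees fed antag-305 in R2, R3 and R42, and from 11, 11 and 10 bees fed antag-missense. For the fat body there were 12, 12 and 11 bees fed antag-305 and 9, 11 and 10 fed antag-missense. The kept library nearest the limit had a viral share of 0.373%, and the nearest one left out had 0.873%. Counts on bee genes ran between 5346264 and 49150105 per library. Most neuron and fat body markers matched the tissue labels. At a Benjamini-Hochberg adjusted P below 0.05 (edgeR), 13 of 14 neuron markers were higher in the brain and 1 was lower. All 4 fat body markers tested were lower in the brain. Over all genes tested, 48.2% were higher and 46.0% lower. Brain over fat body, Syt1, a synaptic vesicle calcium sensor, stood at 5.30 on the log2 scale (SE 0.08) and Hex70a, a storage protein of the fat body, at −10.39 (SE 0.31). Each library is 1 bee, so errors below are over bees.

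Both genes lie on chromosome 3 (linkage group 3 of the HAv3.1 assembly), and both are read from the plus strand. LOC551970 occupies bases 4547770 to 4562135, a span of 14366 bases, and LOC413858 occupies 4566240 to 4581521, a span of 15282 bases. The 4104 bases between them are filled by LOC410092 on the minus strand, at 4561997 to 4566510, whose ends overlap LOC551970 by 139 bases and LOC413858 by 271 bases. A long non-coding RNA gene, LOC102653989, lies on the minus strand inside LOC413858, at 4572846 to 4574847. The counts are for whole spans, introns included, and the strand setting of the counting is not given in the sources used here, so reads of the 2 genes and of these opposite-strand partners cannot be told apart where the spans overlap.

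In the brain both genes were sparsely read. Levels are given as CPM, the reads of a gene per 1000000 counts on bee genes after TMM scaling of the library. LOC551970 had 74 reads in the median brain library (18 to 290), and LOC413858 had 30 (4 to 122). Per 1000 bases of span, the median brain level was 0.344 CPM for LOC551970 and 0.127 CPM for LOC413858, against a median of 8.66 CPM over the 9118 genes tested in the brain. Of those genes, 7.48% had a lower level per length than LOC551970 and 2.75% a lower one than LOC413858. The introns counted in long spans lower such a level.

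Dual oxidase had 1.97 to 13.9 CPM in the 35 brains of antag-305 bees, with a median of 6.94, against 1.65 to 7.35 CPM, with a median of 3.55, in the 32 brains of antag-missense bees. The 2 ranges overlapped, although 33 of the 35 antag-305 brains lay above the antag-missense median and 16 lay above the highest antag-missense brain. The mean was 7.20 ± 2.60 CPM in antag-305 brains and 3.77 ± 1.27 CPM in antag-missense brains (SD), and the log2 fold change in the model with colony was 0.92 (SE 0.12), a 1.89-fold higher level.

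LOC413858 had 1.36 to 7.58 CPM in antag-305 brains, with a median of 2.69, against 0.377 to 3.49 CPM, with a median of 1.15, in antag-missense brains. All 35 antag-305 brains were above the antag-missense median, and 21 of the 32 antag-missense brains were below the lowest antag-305 brain. The means were 3.09 ± 1.35 CPM in antag-305 brains and 1.39 ± 0.73 CPM in antag-missense brains (SD), with a log2 fold change of 1.13 (SE 0.16). Across the brain, 499 of 9118 genes were called higher at an FDR (P adjusted by Benjamini-Hochberg) below 0.05, which is 5.47%, and the 2 genes belong to them because they were picked from them.

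The size of the brain difference varied between colonies, and it was largest in R3 for both genes. In R3, dual oxidase had 6.15 to 10.3 CPM (median 8.79) in antag-305 brains and 1.65 to 4.75 CPM (median 3.11) in antag-missense brains, and the 12 antag-305 brains all lay above the 11 antag-missense brains. In R2 it had 3.64 to 13.9 CPM (median 6.89) in antag-305 brains and 2.75 to 7.35 CPM (median 4.67) in antag-missense brains. In R42 it had 1.97 to 8.08 CPM (median 5.61) in antag-305 brains and 2.44 to 5.36 CPM (median 3.66) in antag-missense brains. In R2 and R42 the treatments overlapped, with 10 of 12 and 9 of 11 antag-305 brains above the antag-missense median. The mean log2 CPM was higher by 1.50 (SE 0.17) in R3, 0.64 (SE 0.22) in R2 and 0.49 (SE 0.20) in R42, antag-305 over antag-missense.

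For LOC413858 the same differences were 1.63 (SE 0.26) in R3, 0.88 (SE 0.22) in R2 and 0.82 (SE 0.28) in R42. Its R3 antag-305 brains had 1.50 to 5.53 CPM (median 3.14) and its R3 antag-missense brains 0.377 to 3.49 CPM (median 0.930), and a single antag-missense brain reached into the antag-305 range. The R2 brains had 1.36 to 5.15 CPM (median 2.64) with antag-305 and 0.652 to 2.46 CPM (median 1.32) with antag-missense. The R42 brains had 1.47 to 7.58 CPM (median 2.62) with antag-305 and 0.837 to 2.71 CPM (median 1.58) with antag-missense. The value of 7.58 CPM was a single brain, that of bee 14, and the next highest R42 brain had 4.03 CPM. Bee 14 also had the lowest dual oxidase level among antag-305 brains, 1.97 CPM. Without R3 the log2 fold changes were 0.64 for dual oxidase and 0.89 for LOC413858, and 10 genes were called over the whole brain, against 1034 with all colonies. Whether the colonies differed in these responses was not tested, since the brain comparison chose the genes.

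**Figure D1:**
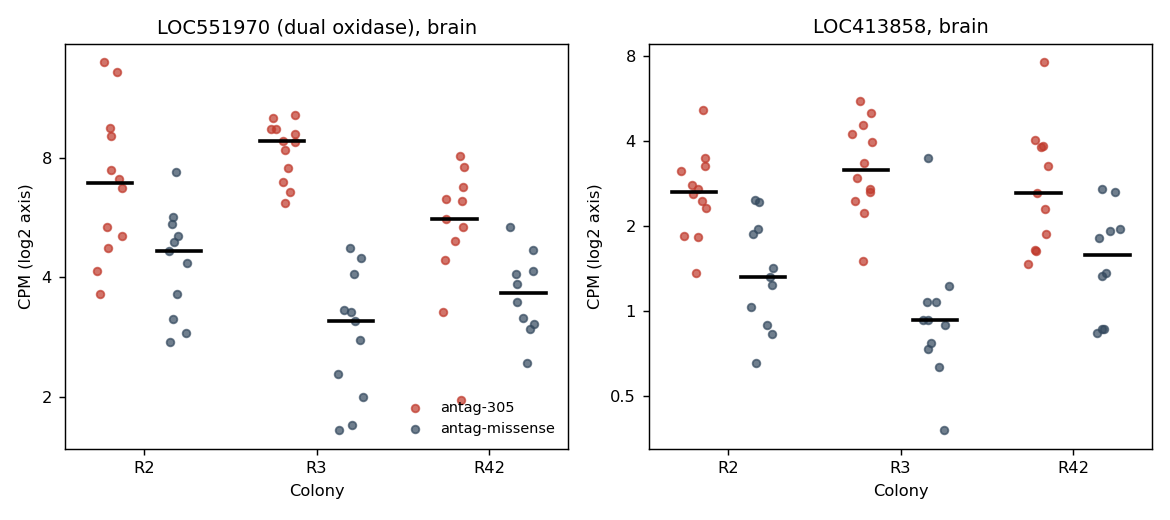
CPM (log2 axis) of LOC551970 (left) and LOC413858 (right) in each brain library, by colony, for bees fed antag-305 (red) and antag-missense (grey-blue); points are bees and bars are group medians. For both genes the antag-305 median exceeded the antag-missense one in each of the 3 colonies, and for LOC551970 in R3 the 12 antag-305 brains (6.15 CPM and more) lay above the 11 antag-missense brains (4.75 CPM and less).

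Ordered by mean log2 CPM, dual oxidase in the brain ran from antag-305 R3 through antag-305 R2, antag-305 R42, antag-missense R2 and antag-missense R42 to antag-missense R3. None of the 5 steps between neighbors in that order exceeded the larger SD of the pair, the largest step being 0.40. For LOC413858 the order was antag-305 R3, R42 and R2, then antag-missense R42, R2 and R3. Its step between antag-305 R2 and antag-missense R42, 0.74, was the only one beyond the larger SD.

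Markers of other cells are given beside these differences. The summed level of 7 troponin genes, which encode muscle regulatory proteins, had a median of 19.43 CPM (11.1 to 179.99) in antag-305 brains and 18.98 CPM (13.3 to 45.5) in antag-missense brains. By edgeR and by DESeq2 0 of the 5 tested were called, and 2 had an unadjusted P under 0.05. Fat body markers (Vg, Hex70a, HEX70b, Hex70c and Hex110) summed to a median of 14.4 CPM (4.93 to 92.0) in antag-305 brains and 14.8 CPM (3.57 to 32.8) in antag-missense brains, with Hex70c at 0 in the median brain. Of the 4 tested, 0 were called by edgeR or DESeq2 and 1 had an unadjusted P under 0.05. The highest sums of troponins (179.99 CPM) and of fat body markers (92.0 CPM) were in R42 brains. In the R42 antag-305 brain with 7.58 CPM of LOC413858, the troponin gene TpnI stood 2.61 above its group mean on the log2 scale. The part of such tissue in the LOC413858 levels was not tested. Hypopharyngeal gland genes (Mrjp1 to Mrjp9 and Hbg3), which encode secreted proteins of that gland, summed to 278 CPM (89.1 to 1479) in antag-305 brains and 223 CPM (88.2 to 2218) in antag-missense brains. Of the 9 tested, Hbg3 was called higher (log2 fold change 0.59, SE 0.16, FDR 0.012), and Mrjp9 was at 0 in the median brain. Neuron markers summed to 3733 CPM (3307 to 4394) in antag-305 brains and 3758 CPM (3041 to 4229) in antag-missense brains, and 1 of 14, NLG-5, a neuroligin, was called higher (log2 fold change 0.15, SE 0.04, FDR 0.018). Of all tested genes, 5.47% were called higher.

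None of the neighboring genes tested was called higher, where 5.47% of all tested brain genes were. The 2 genes were picked as higher in this comparison and the neighbors were not, so setting them side by side is a description. Of the 5 genes on each side and LOC410092 between, 9 could be tested in the brain, and their log2 fold changes, antag-305 over antag-missense, lay between −0.52 and 0.05 with a median of −0.09. By edgeR and by DESeq2, 0 were called higher and 3 lower, the same number as with an unadjusted P under 0.05. They were LOC412524 (−0.18), LOC410091 (−0.17) and LOC724628 (−0.52), where 5.87% of all tested genes were called lower. LOC410092 had too few brain reads to be tested, with a median of 9 reads, and its level was 0.632 CPM (0.149 to 2.20) in antag-305 brains and 0.614 CPM (0 to 1.69) in antag-missense brains. LOC102653989 had a median of 5 reads, with 0.424 CPM in antag-305 brains and 0.260 CPM in antag-missense brains. LOC551970 and LOC413858 thus stood on either side of a gene whose median differed little between the treatments.

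**Figure D2:**
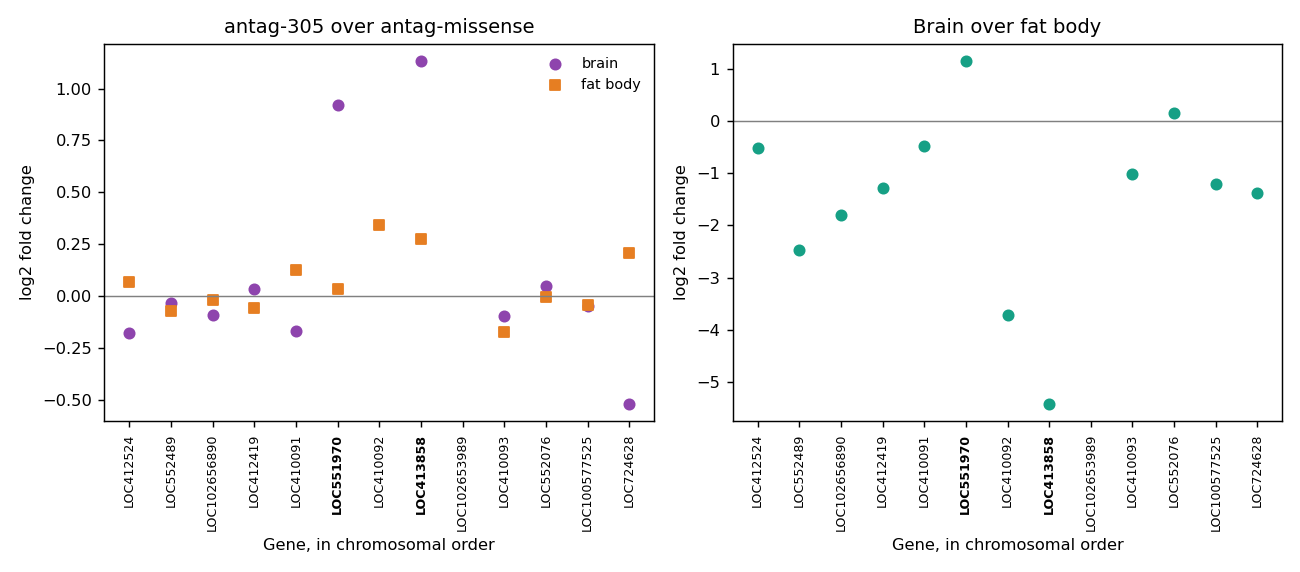
Log2 fold change of the 2 genes (bold), the gene between them and the 5 genes on each side, in chromosomal order. Left, antag-305 over antag-missense, with purple circles for the brain and orange squares for the fat body; right, brain over fat body. In the brain the 2 genes, which were picked by that comparison, stood at 0.92 and 1.13. The 9 tested neighbors lay between −0.52 and 0.05. Genes below the filter have no point.

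Neither gene was called between treatments in the fat body. Dual oxidase had 0.356 to 11.7 CPM in 35 antag-305 fat bodies, with a median of 2.58, against 0.653 to 7.64 CPM, with a median of 2.55, in 30 antag-missense fat bodies. The ranges overlapped almost fully, with 18 of 35 antag-305 fat bodies above the antag-missense median. The log2 fold change was 0.03 (SE 0.23, FDR 0.967, edgeR's quasi-likelihood test), with a 95% interval between −0.42 and 0.49. The difference between the tissues itself was not tested, since the brain value chose the gene.

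LOC413858 had 17.5 to 249 CPM in antag-305 fat bodies, with a median of 124, against 16.9 to 221 CPM, with a median of 101, in antag-missense fat bodies. Here too the treatments overlapped, and 20 of 35 antag-305 fat bodies were above the antag-missense median. Its log2 fold change was 0.27 (SE 0.21, FDR 0.667), with an interval between −0.13 and 0.68. Only 6 of 8844 genes, 0.0678%, were called in that comparison in either direction, so that a lack of a call sets the 2 genes apart from few others. LOC410092, between them, stood at 0.34 on the log2 scale (FDR 0.630). By edgeR 0 of the 10 neighbors tested were called, 0 by DESeq2, and 1 had an unadjusted P under 0.05.

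The dual oxidase value in the fat body was positive in R2 and R3 and negative in R42, and this difference between colonies did not pass the test. The log2 fold change was 0.45 (SE 0.39) in R2, 0.38 (SE 0.37) in R3 and −0.78 (SE 0.39) in R42 in a fit with an interaction of treatment and colony, which was added after the data had been seen. None of these passed (FDR 0.805, 0.999 and 0.150), and the interaction itself had P = 0.046 and FDR 0.200, where 10.5% of tested genes were called for it. In R42 the fat bodies had 0.356 to 3.11 CPM (median 1.38) with antag-305 and 0.653 to 7.64 CPM (median 1.53) with antag-missense, and the means of 1.69 and 2.93 CPM differed more than the medians because 3 antag-missense bees lay above every antag-305 bee. In R2 the fat bodies had 0.985 to 9.52 CPM (median 2.45) with antag-305 and 1.30 to 3.09 CPM (median 2.24) with antag-missense. In R3 they had 1.55 to 11.7 CPM (median 3.05) with antag-305 and 1.35 to 5.44 CPM (median 2.72) with antag-missense. For LOC413858 the interaction had FDR 0.797, and its log2 fold changes were 0.35 in R2, 0.03 in R3 and 0.48 in R42 (SE 0.37, 0.35 and 0.37).

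**Figure D3:**
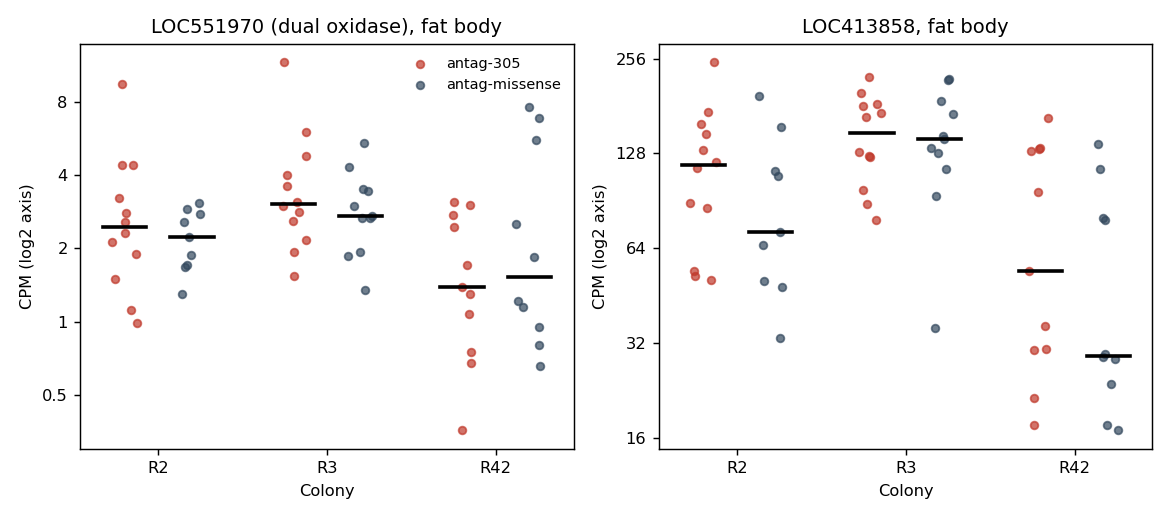
CPM (log2 axis) of LOC551970 (left) and LOC413858 (right) in each fat body library, by colony, for bees fed antag-305 (red) and antag-missense (grey-blue); points are bees and bars are group medians. The treatments overlapped in every colony, and the R42 medians (1.38 and 1.53 CPM for LOC551970, 54.2 and 29.1 CPM for LOC413858) were the lowest.

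The 2 genes had opposite tissue patterns. In the 65 bees with both tissues, dual oxidase was higher in the brain and LOC413858 was far lower there. LOC551970 had 1.65 to 13.9 CPM (median 4.94) over all brains and 0.356 to 11.7 CPM (median 2.56) over all fat bodies, so the ranges overlapped, and the brain value was the higher one in 55 of 65 bees. With the bee as a block, the log2 fold change, brain over fat body, was 1.14 (SE 0.14, FDR 1.5e-11), or 2.21-fold. LOC413858 had 0.377 to 7.58 CPM (median 1.95) in brains and 16.9 to 249 CPM (median 114) in fat bodies, with no overlap, and the brain value was the lower one in all 65 bees. Its log2 fold change was −5.41 (SE 0.19, FDR 3.0e-38), which is a 42.6-fold lower level in the brain. The study's fat body dissection kept the abdominal cuticle. In these fat body libraries troponins summed to medians of 3285 CPM (antag-305) and 3009 CPM (antag-missense), beside 2606 and 2617 CPM for fat body markers. The part of muscle or cuticle in the tissue difference was not tested.

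Calls were common in the tissue comparison, with 48.2% of 9691 genes called higher and 46.0% called lower in the brain, so the size tells more than the call. Only 264 genes had a lower value than LOC413858, 2.72% of those tested, while 67.4% lay below LOC551970. The genes were picked by a difference between antag-305 and antag-missense brains, so each treatment was also fitted alone. Neither fit is free of that choice, because brains of both treatments entered it. In antag-missense bees alone the log2 fold change was 0.62 for dual oxidase (FDR 0.0046) and −5.93 for LOC413858 (FDR 1.9e-18). In antag-305 bees alone the values were 1.50 and −5.12. LOC410092 followed LOC413858 rather than dual oxidase, at −3.72, and 9 of the 10 neighbors tested were lower in the brain and 1 was higher. Per 1000 bases of span the fat body level of LOC413858, 7.46 CPM at the median, was above that of 48.5% of genes tested there, while dual oxidase, at 0.178 CPM, was above 10.3%.

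**Figure D4:**
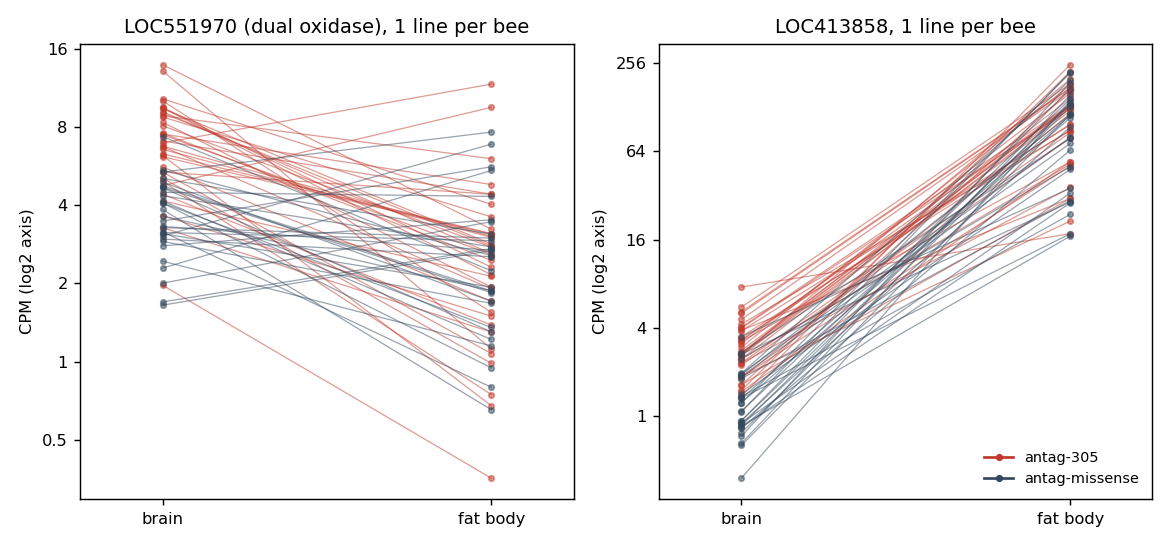
CPM (log2 axis) in the brain and fat body of the 65 bees with both libraries, 1 line per bee, for bees fed antag-305 (red) and antag-missense (grey-blue). LOC551970 (left) was higher in the brain of 55 bees and LOC413858 (right) was lower in the brain of all 65.

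The genes that remove hydrogen peroxide and superoxide did not follow dual oxidase between tissues. All 7 genes named by symbol (Cat, Sod1, Sod2, Tpx-3, Tpx-4, Gtpx1 and Trxr-1) were lower in the brain, with a median log2 fold change of −1.95 beside 0.05 over all genes. Of all genes tested between tissues, 46.0% were called lower in the brain. Cat, catalase, had the lowest value, −4.61 (SE 0.10), and Tpx-3, a thioredoxin peroxidase, the highest, −1.46 (SE 0.06). Between treatments, 1 of the 7 was called in the brain, where Tpx-4 fell by 0.32 on the log2 scale (SE 0.11, FDR 0.039, antag-305 over antag-missense), where 5.87% of all tested genes were called lower, with a list median of −0.11 beside −0.0044 over all genes. For fat bodies 0 of 7 were called by edgeR or DESeq2 and 0 had an unadjusted P under 0.05, Cat having the smallest P (FDR 0.731), and the list median was 0.05 beside 0.01 over all genes. In that comparison 0.0678% of all tested genes were called in either direction.

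Immune effector and recognition genes differed between tissues and were not called between treatments. Of Apid1, Def1, Def2, PGRP-S3 and Pgrp-s2, which encode antimicrobial peptides and peptidoglycan recognition proteins, 4 were tested between tissues and all 4 were lower in the brain, from −9.17 (Apid1) to −2.21 (Def1). Of all genes tested between tissues, 46.0% were called lower there. In the treatment comparisons 0 of 3 were called in the brain and 0 of 4 in the fat body, by edgeR and by DESeq2, and 0 had an unadjusted P under 0.05 in either tissue. The log2 fold changes in the brain, antag-305 over antag-missense, were 0.09 for Def1, 0.06 for PGRP-S3 and −0.17 for Pgrp-s2. Cuticle genes (22 by symbol, apidermins and CPR genes) were also not called between treatments, with 0 of 5 in the brain and 0 of 9 in the fat body by edgeR and by DESeq2, and 0 with an unadjusted P under 0.05. Calls between treatments were few over all tested genes, with 5.47% higher and 5.87% lower in the brain and 0.0678% in either direction in the fat body. A lack of calls in such short lists therefore does not set them apart. No second NADPH oxidase and no heme peroxidase could be found by symbol, so other members of these families were not analysed here.

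Between colonies, dual oxidase was not called in the brain. Its log2 fold changes were −0.36 (SE 0.15, FDR 0.068) for R42 over R2, −0.22 (SE 0.15, FDR 0.344) for R42 over R3 and 0.15 (SE 0.15, FDR 0.571) for R2 over R3, where 14.1% and 9.93% of all tested genes were called lower and, in the last, 8.96% higher. LOC413858 was not called in the brain either, with values between −0.01 and 0.15 (FDR 0.597 and above). Its lower quartile in the 32 antag-missense brains was 0.863 CPM. It therefore met the filter of over 1 CPM in 32 brain libraries only with the antag-305 brains, where it was picked as high. For both genes these brain colony values are read as a description, since treatment values of the same libraries chose the genes. The 3 contrasts share colonies and are not independent.

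LOC413858 in the fat body was lowest in colony R42. It had 16.9 to 166 CPM (median 36.2) in 21 R42 fat bodies, against 35.7 to 223 CPM (median 142) in 23 R3 fat bodies and 33.2 to 249 CPM (median 108) in 21 R2 fat bodies. The colonies overlapped, since the upper R42 bees reached the levels of the others. The log2 fold change was −1.15 (SE 0.25, FDR 0.00025) for R42 over R3, where 17.3% of tested genes were called lower. It was −0.69 (SE 0.26, FDR 0.056) for R42 over R2 and −0.47 (SE 0.25, FDR 0.215) for R2 over R3, where 4.08% and 6.63% were called lower. The R42 over R3 value held within each treatment, at −0.94 in antag-305 bees alone and −1.38 in antag-missense bees alone.

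Dual oxidase in the fat body was at 0.356 to 7.64 CPM (median 1.38) in R42, 1.35 to 11.7 CPM (median 2.99) in R3 and 0.985 to 9.52 CPM (median 2.31) in R2. No contrast passed the test, with −0.62 (SE 0.28, FDR 0.065) for R42 over R3, −0.26 (SE 0.29, FDR 0.584) for R42 over R2 and −0.36 (SE 0.27, FDR 0.412) for R2 over R3. The first of these was −1.21 in antag-305 bees alone, a fit that called 4158 genes, and −0.02 in antag-missense bees alone, where 1841 genes were called, and the interaction of treatment and colony given above had FDR 0.200. In order of mean log2 CPM the 6 fat body groups of both genes began with antag-305 R3, antag-missense R3, antag-305 R2 and antag-missense R2 and ended with the R42 groups, and no step between neighbors exceeded the larger SD of the pair.

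Other genes also differed between R42 and R3 fat bodies, where 28.4% of all tested genes were called higher and 17.3% lower. Cuticle genes summed to a median of 1555 CPM (526.3 to 5543) in R42 and 3140 CPM (1613 to 9519) in R3, with 2 of 9 called lower. Troponins summed to 2734 CPM (1385 to 4820) in R42 and 3265 CPM (1481 to 4703) in R3, with 2 of 7 called higher (TpnCI and TpnCIIa) and 2 lower (TpnT and TpnCIIb). Fat body markers summed to 2553 CPM (343 to 10232) in R42 and 2681 CPM (418 to 7224) in R3, with HEX70b called higher and Hex110 lower. Neuron markers, with which dual oxidase varied in the fat body, summed to 108 CPM (39.5 to 1076) in R42 and 162 CPM (86.6 to 1503) in R3, with a median log2 fold change of −0.88 beside 0.01 over all genes. By edgeR 0 of the 13 tested were called and 0 had an unadjusted P under 0.05, and DESeq2 called 1 lower. The glial gene Eaat-2, a glutamate transporter, had a value of −0.73 (SE 0.44, FDR 0.173). Immune genes were called lower in 3 of 4, and genes that remove hydrogen peroxide and superoxide were called higher in 3 of 7. The part of these genes and cells in the colony differences was not tested, and in whole tissue a change in cell numbers cannot be told apart from a change in RNA per cell.

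Across bees of a group, both genes varied more than most. The SD of log2 CPM within colony and treatment groups was 0.47 for dual oxidase and 0.60 for LOC413858 in the brain, against a median of 0.28 over tested genes, and 82.2% and 91.6% of genes had a smaller one. The fat body SDs were 0.83 and 0.88, against a median of 0.41, and 84.4% and 86.1% of genes had a smaller one.

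The 2 genes did not vary closely together. Once the mean of each colony and treatment group was removed, their log2 CPM correlated at Pearson r = 0.15 over 67 brains (P = 0.263, permutation test within groups, adjusted over 4 relations 0.485) and Spearman rho = 0.26 (P = 0.040, adjusted 0.080). Over fat bodies r was 0.31 with n = 65 (P = 0.029, adjusted 0.116) and rho was 0.39 (P = 0.0037, adjusted 0.015), so that the rank correlation passed and the linear one did not. Without the 2 libraries farthest from the median of dual oxidase, r was 0.30 for brains and 0.46 for fat bodies. Within the 6 groups r lay between −0.34 and 0.51 in the brain, positive in 5, and between −0.08 and 0.92 in the fat body, positive in 4. The −0.34 was that of antag-305 R42 brains, which include bee 14 with its high LOC413858 and low dual oxidase, and rho there was 0.07. When each library was first corrected for its trend with gene length, an alternative added after the data had been seen, r was 0.02 for brains and −0.073 for fat bodies, and rho was 0.15 and 0.13 (adjusted P 0.706 for both). The fat body rank correlation thus did not hold after that correction.

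A bee high in a gene in one tissue was not detectably high in the other. Between brain and fat body of the same 65 bees, r was 0.10 for dual oxidase (rho 0.07) and −0.10 for LOC413858 (rho 0.06), with permutation P of 0.437 and 0.485, each 0.485 after adjustment. Permutation P of the rank correlations was 0.614 and 0.647, each 0.647 after adjustment. Without the 2 bees farthest from the brain median, r was −0.03 for dual oxidase and 0.12 for LOC413858. Within groups, dual oxidase ranged between −0.38 and 0.74, and LOC413858 between −0.60 and 0.24.

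Each gene had closer companions elsewhere in the genome, described here by the Pearson r of the same residual values, over bees that share library, depth and dissection. In the brain, dual oxidase was most like LOC551254 (r = 0.76), Hsc70-4, a constitutive heat shock cognate chaperone (0.75), LOC409065 (0.73), LOC100578984 (0.72) and LOC551848 (0.72). LOC413858 in the brain was most like LOC409787 (0.60), LOC408830 (0.60), LOC409638 (0.58), the troponin C gene TpnCIIIa (0.58) and LOC551259 (0.53). In the fat body, dual oxidase was most like LOC408725 (0.91), LOC413183 (0.91), LOC725336 (0.91), LOC410035 (0.90) and Dsx, doublesex, a sex determination factor (0.90). LOC413858 in the fat body was most like LOC551340 (0.96), LOC413389 (0.95), LOC412281 (0.95), LOC551666 (0.95) and LOC725782 (0.95). Companions were many in the fat body, where 20.9% of 8843 other genes had r over 0.5 with either gene, and in the brain 13.3% of 9117 had it with dual oxidase and 0.11% with LOC413858. Ranked by r to LOC413858, dual oxidase itself came 2298th in the brain and 2548th in the fat body.

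Several measured properties of the libraries moved with the 2 genes in the fat body. Dual oxidase there correlated at 0.79 with the summed neuron markers, at 0.78 with the glial gene Eaat-2, at 0.82 with each library's slope of level on gene span, and at −0.44 with its depth, and its 5 companions had a median span of 91468 bases, against 4194 over tested genes. LOC413858 correlated at 0.91 with the summed troponins, at 0.94 with TpnI alone and at 0.78 with the cuticle genes. Its correlation was 0.45 with the summed fat body markers, −0.12 with the summed neuron markers and −0.03 with the span slope. The troponin list was added after values had been seen, so its correlations are a description. Of the neuron markers, Syt1 alone correlated at 0.68 with LOC413858 and at 0.49 with dual oxidase. With LOC410092 between them, dual oxidase correlated at 0.65 and LOC413858 at 0.77 in the fat body, where opposite-strand reads cannot be told apart. With LOC102653989, which had a median of 9 reads there, the values were 0.76 and 0.25. With the summed genes that remove hydrogen peroxide and superoxide, dual oxidase correlated at −0.65 in the fat body and −0.21 in the brain. For LOC413858 these were 0.06 and −0.31. In the brain, dual oxidase correlated at 0.56 with the span slope, at 0.46 with Eaat-2 and at −0.41 with the troponins, and LOC413858 at 0.24 with the span slope and 0.46 with the troponins. The part of these properties in the levels was not tested.

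**Figure D5:**
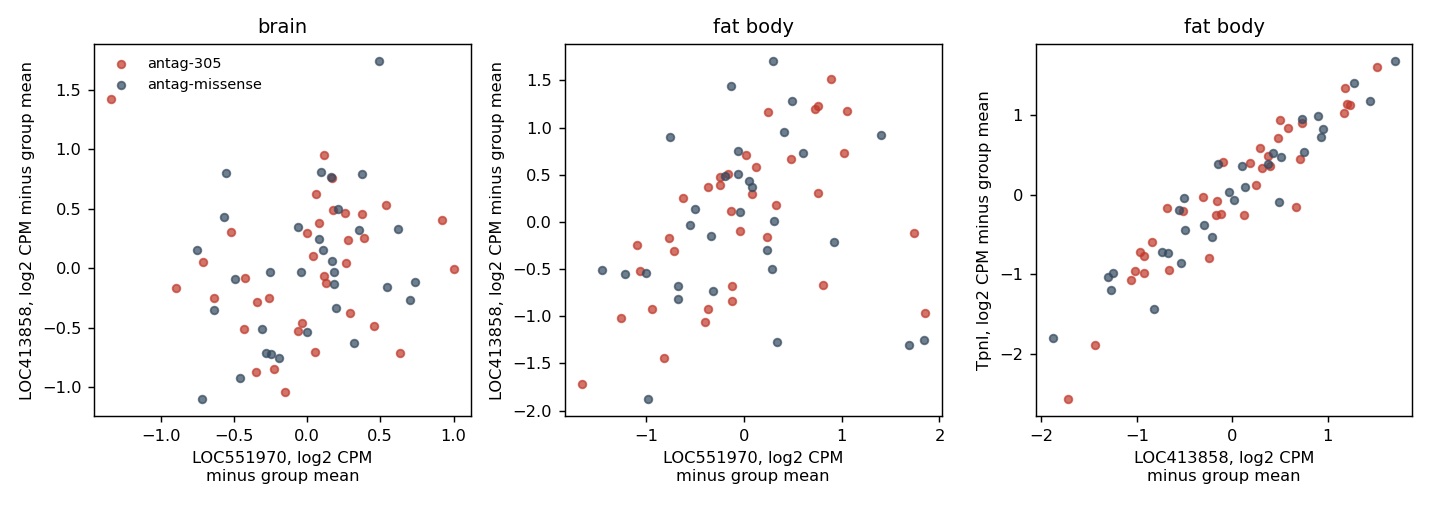
Log2 CPM minus the mean of the colony and treatment group, 1 point per library, for bees fed antag-305 (red) and antag-missense (grey-blue). Left and center, LOC413858 against LOC551970 in the brain (r = 0.15) and fat body (r = 0.31); right, TpnI against LOC413858 in the fat body (r = 0.94). TpnI belongs to the troponin list, which was added after values had been seen.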

How the data were processed

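RNA-seq counts were analysed for brain and abdominal fat body of single bees. Per the labels and the study's methods, the authors made stranded libraries, aligned reads to HAv3.1 (STAR v2.7.6a) and counted reads per gene (featureCounts, Subread v2.0.0). The deposited files hold raw counts per library for 12332 whole gene spans and 5 viral genomes, and 12331 spans matched a RefSeq symbol (Amel_HAv3.1). Strand and multimapping settings are not given in the sources used here. The dose volume differs between the labels and the methods and is not reported.

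Genes over 1 CPM in at least 32 libraries of the brain, or 30 of the fat body, were tested in R 4.3.3 with edgeR 4.0.16 (TMM, legacy quasi-likelihood, colony and treatment as terms, Benjamini-Hochberg FDR under 0.05). Tissues were compared over genes above 1 CPM in at least 30 libraries of a tissue, with the bee as a block, since both libraries come from 1 animal. Log2 CPM used a prior count of 2, and correlations used 100000 permutations within groups, two-sided. Fits were tested on simulated data.

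The 2 genes and the lists were chosen with earlier results of these data known. Genes named are the 2, those between and 5 on each side, the 5 most correlated per tissue, and list members past the threshold or with the smallest P; markers and troponins are named with their sums, and the troponin list was added after values were seen. Descriptions were not at hand for most genes, so lists were made by symbol. Alternatives were DESeq2 1.42.0 and its size factors, no filter, all 69 libraries of a tissue, a viral limit of 0.05%, the bee number as a block, leaving out each colony, single treatments, a prior count of 0.5, and loess offsets on gene length (span 0.5). At 5346264 counts or more per library, the lowest count of the 2 genes was 4 reads, for LOC413858 in the brain.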

Additional observations from a re-analysis of the deposited data

How the results depend on the processing

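The brain treatment values stayed positive under all 11 alternatives, between 0.64 and 1.09 for dual oxidase and between 0.89 and 1.27 for LOC413858. Their sign is no added evidence, since the genes were picked as higher in these brains and the alternatives reuse the same brain libraries. The replicate block on bee number gave 0.94 and 1.27 there and changed the call of neither gene in the fat body. For same-numbered bees of the treatments, the median r of their deviations was 0.04 over 28 brain pairs (−0.64 to 0.60). Over 26 fat body pairs it was −0.11 (−0.69 to 0.60). Without such values for differently numbered bees, these cannot show whether the numbers pair bees. Genes called in the brain were 1034, against 449 with the replicate block, 318 with the block and length offsets, 10 without R3 and 498 without R42.

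The dual oxidase value in the fat body, 0.03, turned to −0.014 with the replicate block, −0.047 with the block and length offsets, −0.073 with length offsets, −0.16 without R2 and −0.20 without R3, and none passed the test. Without R42 it was 0.45. Genes called there were 6, against 0 with the block, without R2 or without R3, 86 without R42, 1 with the block and length offsets and 14 with DESeq2.

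In the brain, R2 over R3 turned to −0.18 for dual oxidase in antag-305 bees and to 0.41 for LOC413858 in antag-missense bees. R42 over R3 for dual oxidase was −0.62 in antag-305 bees and 0.28 in antag-missense bees, and for LOC413858 it turned to −0.15 in antag-305 bees. These values are a description, since treatment values of the same brain libraries chose the genes. In the fat body, R42 over R3 for dual oxidase passed with no filter (−0.63), all 69 libraries (−0.66), DESeq2 (−0.64) and antag-305 bees alone (−1.21, with 4158 genes called). R42 over R2 turned to 0.38 for dual oxidase in antag-missense bees and passed for LOC413858 with DESeq2 size factors (−0.71), DESeq2 (−0.71) and all 69 libraries (−0.73). Single treatments called fewer genes in most contrasts, for example 496 and 653 against 1553 for R2 over R3 in the brain. The tissue values ranged between 0.62 and 1.50 for dual oxidase and between −5.93 and −5.06 for LOC413858 and passed throughout (0.98 and −5.51 with no replicate block).

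The correlation of the pair in the fat body turned to −0.073 with length offsets. Between tissues, dual oxidase turned to −0.17 without R42 and LOC413858 to 0.0076 without R3. Of 138 alternative values with a test, 117 kept their direction and side of the threshold, 13 reversed and 8 passed where the main value had not, the brain value of −0.62 among them. That brain value remains a description, since antag-305 brains entered the comparison that chose the gene. The cause of the reversals and of the values that passed was not tested. The lowest counts were 4 reads for LOC413858 in the brain and 8 reads for dual oxidase in the fat body.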

Other observations

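The 6 libraries left out for their viral share, all from antag-missense bees, gave values of both genes inside the range of the kept antag-missense libraries of the same tissue, with 1 exception. In the brain, R3 bee 21 (viral share 47.7%) had 2.24 CPM of dual oxidase and 1.86 CPM of LOC413858, and R42 bee 15 (23.7%) had 3.36 and 2.14 CPM, against 1.65 to 7.35 and 0.377 to 3.49 CPM in kept brains. In the fat body, dual oxidase was at 4.64 CPM in R2 bee 23 (12.7%), 1.79 CPM in R2 bee 27 (0.873%), 1.965 CPM in R3 bee 21 (47.9%) and 0.566 CPM in R42 bee 15 (11.7%), the last below the lowest kept library at 0.652 CPM. LOC413858 in these fat bodies was at 98.7, 79.9, 112 and 33.1 CPM, inside the range of 16.6 to 219 CPM. These CPM were scaled over all libraries of a tissue.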
